A study of Mus musculus with 8 samples.

Results

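The collagen chain genes were followed in dermal fibroblasts of mice fed a high fat diet. They were taken as every gene whose symbol has the form of a collagen chain (Col, a type number, a and a chain number) in the platform's probe annotation, which gave 42 genes of the 17097 genes measured. The arrays held 68 probe sets naming these genes alone. A total of 21 genes had 1 probe set and 21 had more than 1, and the brightest over the arrays compared stood for the gene. By the kind of polymer they form, 11 were fibrillar, 9 were FACIT collagens (fibril-associated collagens with interrupted triple helices), 6 were basement membrane chains of type IV and 16 belonged to other types.

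The high fat diet group (HFD) comprised HFD 1 to 4, and the normal diet group (ND) comprised ND 1 to 4. All were female mice that began their diet at 2 months of age and ate it for 6 months, with no genotype or strain given in the labels. From each specimen 10000 cells of the dermis, freed of the layer beneath it, were sorted as positive for Pdgfra and CD34 and negative for CD45, CD117, CD24, CD31 and EpCam, and their RNA was amplified over 20 cycles. ND 4 is marked in the labels as left out after quality control, with no further detail. The comparison was therefore of HFD 1 to 4 with ND 1 to 3, and ND 4 appears only as a single value or where its addition is named. The labels number the specimens, which were treated as different mice, and precision is limited by how few arrays there are.

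Collagens are proteins of the extracellular matrix whose chains wind into triple helices. Fibrillar collagens such as types I, III and V assemble into the fibrils that give dermis its tensile strength, FACIT collagens sit on the surface of such fibrils, and type IV chains form the network of basement membranes. Fibroblasts are the main source of fibrillar collagen in dermis.

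Values are log2 expression after the authors' normalization, in which the quartiles of the 8 arrays differ by at most 0.04, so a change in total RNA per cell would not be seen. Since the arrays measure bulk samples, fewer cells of a type and less RNA per cell cannot be told apart. Probes differ in how strongly they bind, so levels are not compared between genes, and a level serves only to tell bright from dim against the median gene at 6.77. The mean of 10 fibroblast markers was 11.37 to 11.48 in HFD and 11.40 to 11.51 in ND. Of these markers 6 had higher means in HFD, and 2 passed the test described below, both lower in HFD, Lum (−0.34, limma adjusted p = 0.0358) and the matrix glycoprotein gene Fbln1 (−0.26, limma adjusted p = 0.0329). Of the genes of the sort, Cd34 averaged 12.10 in HFD and 12.08 in ND, while the probe set for Pdgfra was below the median gene, at 6.27 in HFD and 5.92 in ND. A measure of RNA quality, the 3′ minus 5′ signal averaged over control probe sets of Gapdh and Actb, did not overlap between the diets. It was −0.40, −0.44, −0.375 and −0.44 in HFD 1 to 4, against −0.29, −0.335 and −0.18 in ND 1 to 3. The excluded ND 4 was at −0.37, below ND 1 to 3 and next to HFD 3. The mean of 17 keratinocyte markers was 6.36, 7.54, 6.98 and 6.94 in HFD 1 to 4, against 6.66, 6.28 and 6.44 in ND 1 to 3. All 17 were higher on average in HFD and 0 passed the threshold. In the excluded ND 4 this mean was 6.98, inside the HFD range.

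Most collagen chain genes were not called as different between the diets. In limma, with p-values adjusted over all 17097 genes and a threshold of 0.05, 1 of the 42 was higher in HFD, 0 were lower and 41 did not pass, a share of 2.38% beside 5.35% of all genes. Of all genes, 2.62% were higher in HFD and 2.73% lower. At an unadjusted p under 0.05 there were 5 members, or 11.9%, beside 22.1% of all genes. The HFD and ND arrays did not overlap for 4 members, or 9.52%, beside 17.9% of all genes. The median difference, HFD minus ND, was 0.04 over the members and 0.02 over all genes, and the median size of the difference without its sign was 0.08 over the members and 0.09 over all genes. Of the 42 members, 22 were brighter than the median gene and 8 lay below the lower quartile of gene means, at 5.39. Among the 22 brighter members 1 was called, or 4.55%, beside 9.45% of all genes brighter than the median gene. Their median size of difference was 0.13, beside 0.16 over all genes that bright. Not passing does not show equal levels, and 95% intervals reached as far as 1.70 for Col14a1.

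**Figure D1:**
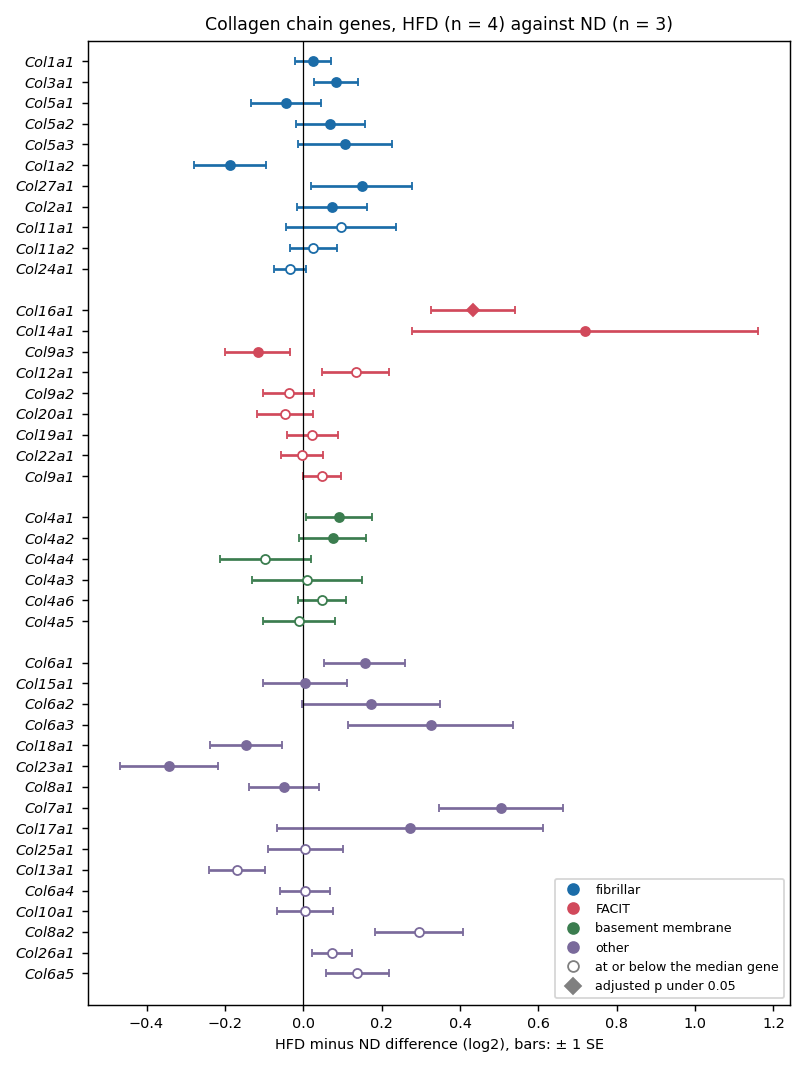
Difference between diets for the 42 collagen chain genes, HFD (n = 4) minus ND (n = 3), on the log2 scale with bars of 1 SE on each side, by class and within a class from brightest to dimmest. Filled points are brighter than the median gene and the diamond is the 1 gene past the threshold, Col16a1 at 0.43, while Col14a1 at 0.72 has the widest bar.

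None of the 11 fibrillar genes passed (0 genes in limma, and 0 at an unadjusted p under 0.05, beside 22.1% of all genes). Their differences lay between −0.19 and 0.15. Col1a1 encodes the major chain of type I collagen. It was at 13.19, 13.24, 13.26 and 13.22 in HFD 1 to 4, against 13.24, 13.14 and 13.23 in ND 1 to 3. The diets overlapped, and the difference of 0.02 had a 95% interval of −0.08 to 0.13. Col3a1, the chain of type III collagen, was at 13.14, 13.13, 13.17 and 13.11 in HFD 1 to 4, against 13.01, 13.18 and 12.97 in ND 1 to 3. Its difference was 0.08, with an interval of −0.04 to 0.21, and ND 2 lay above every HFD array. These probe sets of Col1a1 and Col3a1 ranked among the brightest of the 45141 on each array compared (ranks 6 to 9 and 8 to 14). The normalized scale ends at 13.5, and compression of their differences there was not tested. Col3a1 also had a dimmer probe set, at 8.33 to 9.25 in HFD and 8.7 to 9.32 in ND. In a fit of all named probe sets it differed by −0.19, of the opposite sign, with a wider 95% interval of −0.69 to 0.30.

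The type V chains, which join type I collagen in mixed fibrils, also overlapped between the diets. Col5a1 was at 12.06, 11.88, 12.23 and 12.21 in HFD 1 to 4, against 12.05, 12.24 and 12.13 in ND 1 to 3, a difference of −0.04 (95% interval −0.24 to 0.15). Col5a2 was at 11.76, 11.68, 12.01 and 11.89 in HFD 1 to 4, against 11.66, 11.88 and 11.76 in ND 1 to 3, a difference of 0.07 (95% interval −0.13 to 0.26). In both genes HFD 2 was the lowest and HFD 3 the highest HFD array, and ND 1 was the lowest and ND 2 the highest ND array. Col1a2, the partner of Col1a1 in type I collagen, had 1 probe set in the annotation. It was at 8.90, 8.99, 8.82 and 8.70 in HFD 1 to 4, against 9.0, 9.07 and 9.05 in ND 1 to 3. The diets were separated by 0.01 only, and the difference of −0.19 (SE 0.09) did not pass (adjusted p = 0.267), while the excluded ND 4 was at 8.81, inside the HFD range. Col2a1, Col11a1 and Col11a2, known from cartilage, differed by 0.07, 0.10 and 0.03. The mean of 8 chondrocyte markers was 5.29 to 5.39 in HFD and 5.33 to 5.36 in ND.

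Among the FACIT genes Col16a1 rose, and the other 8 did not pass. Col16a1 encodes the chain of type XVI collagen, which associates with fibrils and with microfibrils near the basement membrane of skin. It was at 10.88, 11.19, 11.28 and 11.18 in HFD 1 to 4, against 10.59, 10.87 and 10.64 in ND 1 to 3. HFD 1 and ND 2 were 0.01 apart, and the excluded ND 4 was at 10.90, above HFD 1. The mean was 11.13 ± 0.17 (SD, n = 4) in HFD and 10.70 ± 0.15 (SD, n = 3) in ND, a difference of 0.43 (SE 0.11, limma adjusted p = 0.0464) or 1.35-fold. The call was lost in limma when HFD 2, HFD 3, HFD 4, ND 1 or ND 3 was left out (differences of 0.38 to 0.42, adjusted p of 0.10 to 0.173) and when ND 4 was added (0.38, adjusted p = 0.165). It was also lost with the keratinocyte mean in the model (0.34, adjusted p = 0.241) and with the RNA quality measure in the model (0.30, adjusted p = 0.999). The RNA quality measure did not overlap between the diets, so that model could hardly separate it from diet.

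**Figure D2:**
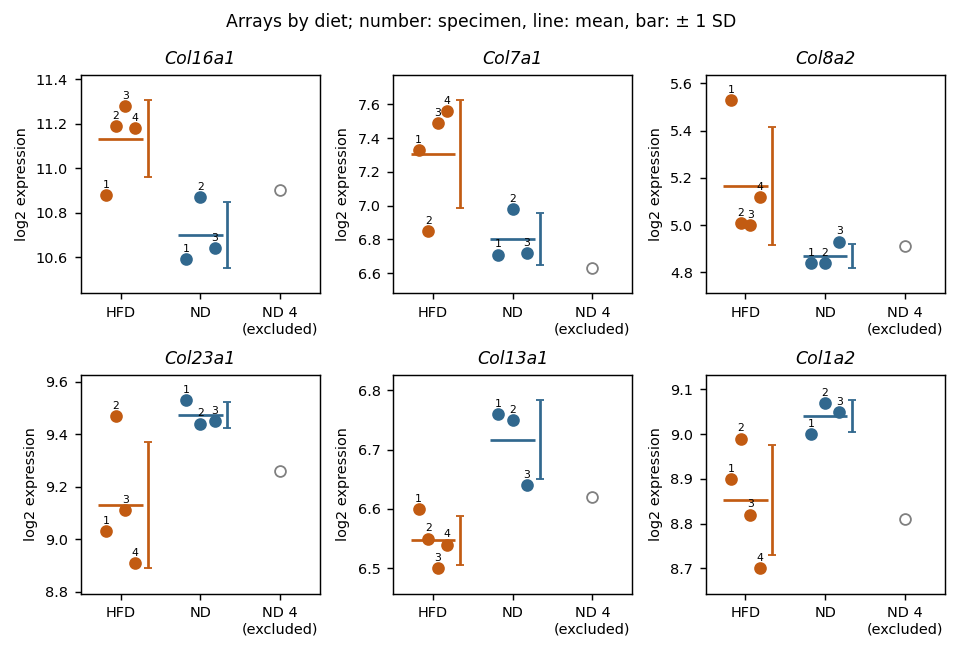
Log2 expression of Col16a1, Col7a1, Col8a2, Col23a1, Col13a1 and Col1a2 on each array, HFD (n = 4) left of ND (n = 3), with the specimen number at each point, lines for the means, bars for 1 SD on each side and an open circle for the excluded ND 4. Col16a1 is past the threshold, and its HFD 1 at 10.88 lies next to ND 2 at 10.87.

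Because Col16a1 is the 1 member past the threshold, the 250 bases before its annotated start are shown, from chr4:130047590-130047839, plus strand, of GRCm38.p6 as RefSeq gives it. Capitals mark GGGCGG, the GC box, and CCAAT, searched on both strands together with TATAAA.
Col16a1: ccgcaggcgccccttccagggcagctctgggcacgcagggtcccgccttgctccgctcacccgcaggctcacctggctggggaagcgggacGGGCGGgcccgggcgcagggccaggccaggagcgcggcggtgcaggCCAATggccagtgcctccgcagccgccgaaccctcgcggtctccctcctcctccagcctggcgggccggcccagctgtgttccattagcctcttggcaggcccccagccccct
The stretch held 1 GGGCGG, starting 159 bases before the start, 1 CCAAT, starting 113 bases before it, and 0 TATAAA. Over windows of 300 bases that also hold the first bases of the transcript, RefSeq's table listed 36 promoters of 33 members, with 9 members not listed. GGGCGG was in 22 of them, or 61.1%, beside 35.7% of all 32851 promoters. CCAAT was in 13, or 36.1%, beside 37.4% of all, and TATAAA in 5, or 13.9%, beside 13.6% of all.

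Col14a1, the chain of type XIV collagen, which binds the fibril surface, varied more between mice than nearly any gene. It was at 8.76, 9.43, 7.93 and 8.81 in HFD 1 to 4, against 9.17, 7.75 and 7.12 in ND 1 to 3. HFD 2 and ND 1 were high and HFD 3 and ND 3 low, and the diets overlapped. Its SD within the diets was 0.82, larger than that of 99.9% of genes, and the difference of 0.72 (SE 0.44) did not pass (adjusted p = 0.386). It was 1.30 without ND 1 (adjusted p = 0.0641) and 0.27 without ND 3 (adjusted p = 0.841). With the keratinocyte mean in the model it was 0.29 (adjusted p = 0.87), and with the RNA quality measure it had the opposite sign, −0.55 (SE 0.68, adjusted p = 0.999). The 2 dimmer probe sets had HFD 2 as the highest and HFD 3 as the lowest HFD array, and ND 1 as the highest and ND 3 as the lowest ND array, with differences of 0.65 and 0.03. Col9a3, a chain of type IX collagen, was at 8.21, 8.28, 8.23 and 8.16 in HFD 1 to 4, against 8.36, 8.40 and 8.25 in ND 1 to 3, a difference of −0.12 (adjusted p = 0.466). Col12a1, a chain like that of type XIV, was dim, at 5.85, 5.89, 5.89 and 5.57 in HFD 1 to 4, against 5.73, 5.63 and 5.64 in ND 1 to 3, a difference of 0.13 (adjusted p = 0.41). The remaining 5 FACIT genes, Col9a1, Col9a2, Col19a1, Col20a1 and Col22a1, lay below the median gene and differed by −0.05 to 0.05.

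None of the 6 type IV genes passed (0 genes in limma, and 0 at an unadjusted p under 0.05, beside 22.1% of all genes). Col4a1 and Col4a2 encode the chains of the common type IV network and are read in opposite directions from neighbouring starts, 21 bases apart in RefSeq. Col4a1 was at 11.46, 11.43, 11.37 and 11.65 in HFD 1 to 4, against 11.46, 11.26 and 11.44 in ND 1 to 3. Col4a2 was at 9.63, 9.45, 9.54 and 9.64 in HFD 1 to 4, against 9.45, 9.45 and 9.57 in ND 1 to 3. The diets overlapped in both genes, with differences of 0.09 (95% interval −0.10 to 0.28) for Col4a1 and 0.08 (95% interval −0.11 to 0.26) for Col4a2. The other Col4a1 probe set, with a mean of 10.92, differed by 0.01 (95% interval −0.14 to 0.16). The excluded ND 4 was lower than all other arrays in both genes, at 11.06 for Col4a1 and 9.02 for Col4a2. Col4a3 and Col4a4, known from the basement membrane of the kidney glomerulus, were below the median gene. Col4a3 was at 5.54, 5.82, 5.87 and 5.73 in HFD 1 to 4, against 5.84, 5.35 and 6.00 in ND 1 to 3. Col4a4 was at 6.39, 6.83, 6.73 and 6.49 in HFD 1 to 4, against 6.70, 6.58 and 6.84 in ND 1 to 3. Neither separated the diets, and the dim Col4a5 and Col4a6 differed by −0.01 and 0.05. The mean of 10 endothelial markers, a cell type that also makes type IV collagen, was 5.80 to 5.99 in HFD and 5.79 to 5.91 in ND.

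Of the 16 other genes 0 passed. An unadjusted p under 0.05 was found for 4 of the 16, a share close to the 22.1% of all genes. These 4 were Col7a1 and Col8a2 with higher and Col23a1 and Col13a1 with lower means in HFD. Col7a1 encodes the chain of the anchoring fibrils that fasten the epidermal basement membrane to the dermis. It was at 7.33, 6.85, 7.49 and 7.56 in HFD 1 to 4, against 6.71, 6.98 and 6.72 in ND 1 to 3. HFD 2 lay below ND 2, and the difference was 0.50 (SE 0.16, adjusted p = 0.0911), or 0.66 with an adjusted p = 0.0462 without HFD 2. The keratinocyte marker mean was highest in HFD 2, the HFD array lowest in Col7a1. With that mean in the model the Col7a1 difference was 0.72 (adjusted p = 0.116). A relation of Col7a1 to the keratinocyte markers was not tested.

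Col23a1, the chain of a transmembrane collagen, was at 9.03, 9.47, 9.11 and 8.91 in HFD 1 to 4, against 9.53, 9.44 and 9.45 in ND 1 to 3. Apart from HFD 2, the HFD arrays lay below the ND arrays, and the difference was −0.34 (SE 0.13, adjusted p = 0.139). Its 2 dimmer probe sets differed by −0.10 and 0.23, with both signs among the 3. Col13a1, another transmembrane collagen, was at 6.60, 6.55, 6.50 and 6.54 in HFD 1 to 4, against 6.76, 6.75 and 6.64 in ND 1 to 3. The diets did not overlap, though the difference was −0.17 (SE 0.07, adjusted p = 0.202) near the median gene. Col8a2, a short chain collagen, was dim, at 5.53, 5.01, 5.0 and 5.12 in HFD 1 to 4, against 4.84, 4.84 and 4.93 in ND 1 to 3. The diets did not overlap, HFD 1 stood above the other HFD arrays, and the difference was 0.29 (SE 0.11, adjusted p = 0.157).

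Col6a1, Col6a2 and Col6a3 encode the chains that join in type VI collagen, which forms beaded filaments around cells. Col6a1 was at 11.86, 11.41, 11.72 and 11.73 in HFD 1 to 4, against 11.45, 11.65 and 11.47 in ND 1 to 3. Col6a2 was at 11.14, 10.35, 10.84 and 10.84 in HFD 1 to 4, against 10.33, 10.88 and 10.65 in ND 1 to 3. Col6a3 was at 11.10, 10.06, 10.44 and 10.66 in HFD 1 to 4, against 10.29, 10.48 and 9.95 in ND 1 to 3. In all 3 genes HFD 1 was the highest and HFD 2 the lowest HFD array, and ND 2 was the highest ND array. The diets overlapped, with differences of 0.16, 0.17 and 0.32 and adjusted p of 0.42, 0.633 and 0.416. Col6a2 and Col6a3 had SDs within the diets of 0.31 and 0.38, larger than those of 97.4% and 98.7% of genes.

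**Figure D3:**
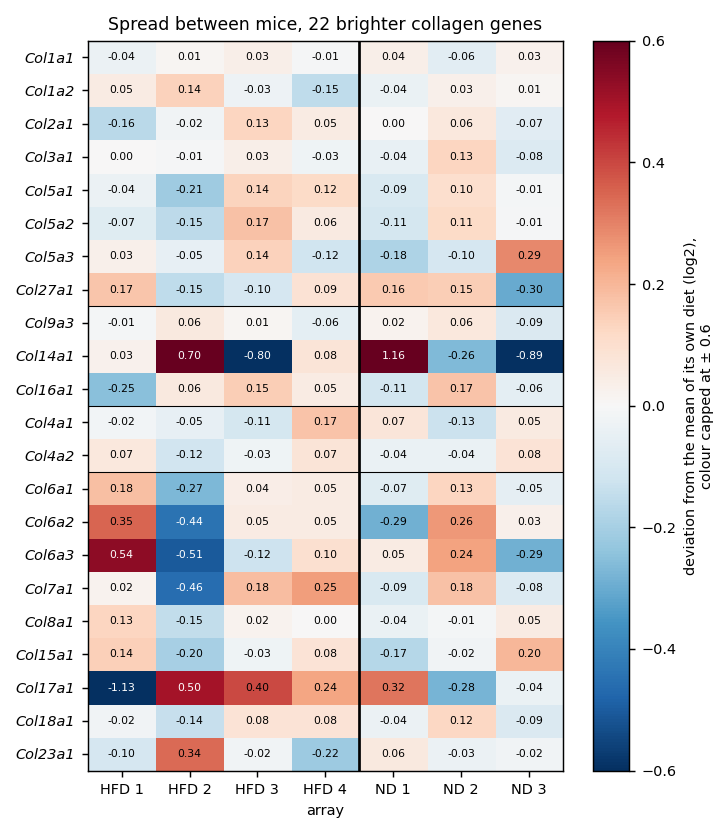
Deviation of each array from the mean of its own diet, on the log2 scale, for the 22 collagen chain genes brighter than the median gene, with HFD 1 to 4 left of ND 1 to 3 and horizontal lines between classes. The type VI genes are red in HFD 1 and blue in HFD 2, and Col14a1 and Col17a1 have the darkest cells.

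Col17a1, a transmembrane collagen of keratinocyte hemidesmosomes, was described after its values were seen. It was at 5.97, 7.60, 7.50 and 7.34 in HFD 1 to 4, against 7.15, 6.55 and 6.79 in ND 1 to 3. HFD 1 lay below all other arrays, and within each diet the arrays had the same order in Col17a1 as in the keratinocyte marker mean. The difference was 0.27 (SE 0.34, adjusted p = 0.708). It was 0.65 (adjusted p = 0.037) without HFD 1 and −0.43 (adjusted p = 0.37) with the keratinocyte mean in the model, of opposite signs.

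**Figure D4:**
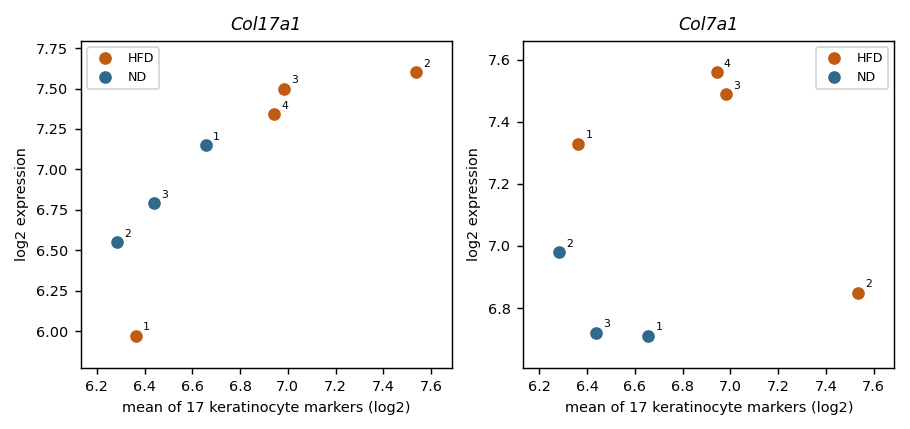
Log2 expression of Col17a1 (left) and Col7a1 (right) against the mean of 17 keratinocyte markers on each array, HFD (n = 4) and ND (n = 3), with the specimen number at each point. Col17a1 is highest in HFD 2, where the marker mean is 7.54, and lowest in HFD 1, where it is 6.36. Col7a1 in HFD 2 is the lowest HFD value at 6.85.

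Col15a1 and Col18a1 encode multiplexins, collagens of the basement membrane zone. Col15a1 was at 11.13, 10.79, 10.96 and 11.07 in HFD 1 to 4, against 10.81, 10.96 and 11.18 in ND 1 to 3, a difference of 0.00 with a 95% interval of −0.23 to 0.24. The 2 probe sets of Col18a1 were nearly equally bright and disagreed in size. The brighter was at 9.59, 9.47, 9.69 and 9.69 in HFD 1 to 4, against 9.72, 9.88 and 9.67 in ND 1 to 3, a difference of −0.15 (SE 0.09, adjusted p = 0.395). The other was at 9.52, 9.29, 9.41 and 9.27 in HFD 1 to 4, against 9.75, 9.99 and 10.23 in ND 1 to 3. Here every HFD array lay below every ND array, and in a fit of all 28898 named probe sets the difference was −0.62 (SE 0.12, adjusted p = 0.0278), while the excluded ND 4 was at 9.33, inside the HFD range. That fit called 2 of the 68 collagen probe sets, or 2.94%, beside 4.75% of all named probe sets. The other was that of Col16a1 (adjusted p = 0.0493).

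Since the probe sets of Col18a1 differ and RefSeq lists 2 starts for this gene, the 250 bases before each start are shown, both on the minus strand of GRCm38.p6, with the same motifs in capitals. The first is chr10:77166531-77166780 and the second chr10:77113706-77113955, and the files do not say which transcripts each probe set reads.
Col18a1 first start: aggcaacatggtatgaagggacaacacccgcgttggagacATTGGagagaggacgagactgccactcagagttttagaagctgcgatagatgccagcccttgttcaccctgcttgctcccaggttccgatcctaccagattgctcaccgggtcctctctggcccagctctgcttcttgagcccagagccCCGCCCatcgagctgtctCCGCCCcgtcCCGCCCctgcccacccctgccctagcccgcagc
Col18a1 second start: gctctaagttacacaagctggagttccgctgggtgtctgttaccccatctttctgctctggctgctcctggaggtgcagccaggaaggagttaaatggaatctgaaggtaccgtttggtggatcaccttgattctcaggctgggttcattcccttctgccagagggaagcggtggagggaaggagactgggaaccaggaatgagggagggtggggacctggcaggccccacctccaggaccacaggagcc
The stretch before the first start held 3 copies of GGGCGG and 1 CCAAT, all of them on the other strand (CCGCCC and ATTGG as printed), while that before the second start held 0 of the motifs searched.

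**Figure D5:**
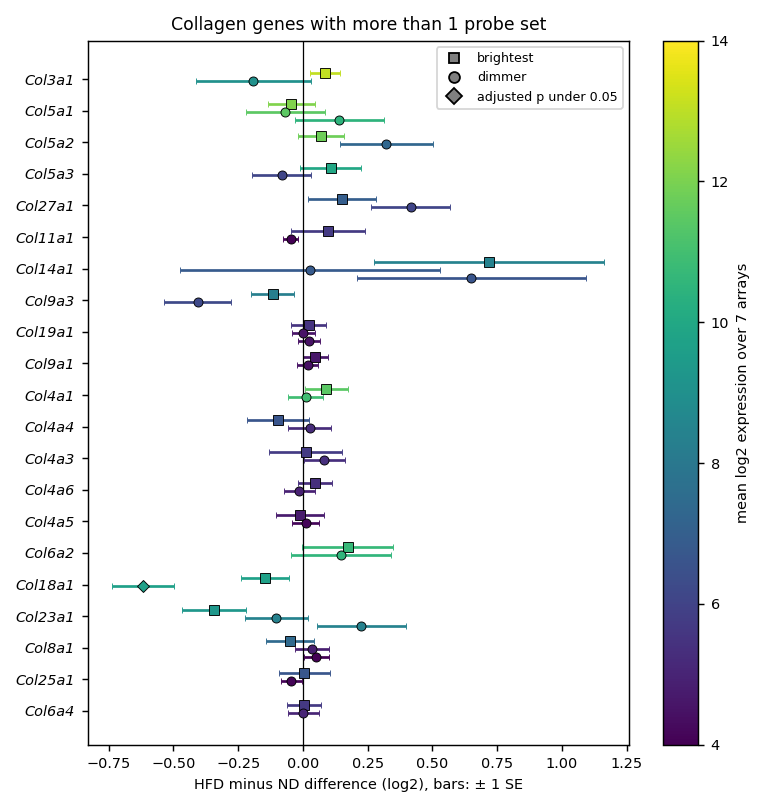
Difference between diets, HFD (n = 4) minus ND (n = 3), on the log2 scale with bars of 1 SE on each side, for every probe set of the 21 collagen chain genes that have more than 1, coloured by mean log2 expression. The diamond is the Col18a1 probe set at −0.62, beside the brighter one at −0.15.

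Of the 21 genes with more than 1 probe set, all probe sets had the same sign in 11, and in 0 did another probe set with an unadjusted p under 0.05 have the opposite sign. A dimmer probe set of Col9a3 differed by −0.41 (unadjusted p = 0.00995) and one of Col27a1 by 0.42 (unadjusted p = 0.0204), both in the direction of their brighter probe sets and neither past the threshold (adjusted p = 0.0947 and 0.14). The other genes not named so far were Col8a1, Col10a1, Col25a1, Col26a1, Col6a4 and Col6a5, with differences between −0.05 and 0.14, and the fibrillar Col5a3 (0.11), Col24a1 (−0.03) and Col27a1 (0.15).

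Genes whose products mature, export, bind or cut collagen included 7 that passed, of 55 measured, or 12.7% beside 5.35% of all genes. Of the 55, 40 were brighter than the median gene, all 7 called genes among them, and of all genes that bright 9.45% were called. Their share was not tested against that of the chains. Of 30 measured genes of collagen maturation and secretion, 2 were higher in HFD, 2 were lower and 26 did not pass, or 13.3% called, with a median difference of 0.00.

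Creb3l1, a transcription factor that activates collagen genes in bone of mice, was at 10.73, 10.45, 10.64 and 10.70 in HFD 1 to 4, against 11.04, 11.22 and 11.21 in ND 1 to 3. Every HFD array lay below every ND array, with a difference of −0.53 (SE 0.09, adjusted p = 0.0224). The crosslinking enzyme Lox was at 9.92, 10.02, 10.04 and 9.78 in HFD 1 to 4, against 9.54, 9.55 and 9.38 in ND 1 to 3. Every HFD array lay above every ND array, with a difference of 0.45 (SE 0.09, adjusted p = 0.0302), and the dimmer probe sets were at 0.18 and 0.11. Mia3, which exports bulky procollagen from the endoplasmic reticulum, differed by −0.37 (SE 0.07, adjusted p = 0.0299), with its 3 other probe sets at −0.76, 0.02 and 0.17. P4hb, a subunit of the prolyl hydroxylase, differed by 0.27 (SE 0.07, adjusted p = 0.0498). In the fit of all named probe sets the P4hb call was lost (adjusted p = 0.0523).

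Of 25 measured receptors, fibril organisers and collagenases, 1 was higher in HFD, 2 were lower and 22 did not pass, or 12% called. Lum, a proteoglycan that regulates fibril width, was at 12.48, 12.21, 12.22 and 12.43 in HFD 1 to 4, against 12.68, 12.66 and 12.67 in ND 1 to 3. Every HFD array lay below every ND array, with a difference of −0.34 (SE 0.07, adjusted p = 0.0358). Mmp14, a membrane collagenase, differed by −0.29 (SE 0.07, adjusted p = 0.0374), with its dimmer probe set at −0.17. Itgb1, the beta chain of the collagen-binding integrins, differed by 0.32 (SE 0.08, adjusted p = 0.0428). Prelp, a proteoglycan that binds collagen, did not pass (−0.27, adjusted p = 0.0866). The excluded ND 4 lay inside the HFD range for Mia3 (10.38), P4hb (11.82), Mmp14 (11.72) and Itgb1 (11.15). It lay between the diets for Creb3l1 (10.76) and Lum (12.63), and inside the ND range for Lox (9.43). Each of the 7 calls of both lists was lost with ND 4 added, without HFD 3, HFD 4 or ND 3, and with either the keratinocyte mean or the RNA quality measure in the model. Over all genes, 914 calls fell to 6 with ND 4 added. Without HFD 3, HFD 4 or ND 3 they fell to 6, 9 or 11. They fell to 15 with the keratinocyte mean and 0 with the RNA quality measure, so the losses were not particular to these 7 genes.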

How the data were processed

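RNA of sorted dermal fibroblasts was measured on 8 mouse arrays, 4 HFD and 4 ND. The deposited values are log2 expression per probe set, made by the authors with RMA and the affy package per the submitters' processing notes; their versions are not given in the sources used here. Detection calls were not used, so a dim gene is judged by its level alone. The table holds 45141 probe sets, of which the platform annotation names 28898 with 1 gene, and symbols were updated by Entrez identifier through a GRCm38.p6 table. Each gene was represented by its probe set with the highest mean over HFD 1 to 4 and ND 1 to 3.

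The comparison was fitted over all 17097 genes in limma 3.58.1 under R 4.3.3 (lmFit, eBayes with trend, 10.3 total degrees of freedom), and Benjamini-Hochberg adjusted p-values under 0.05 were called. Every adjusted p-value in the text is from limma. No pair of arrays was a duplicate (SD of the difference 0.165 or more).

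The members, classes and lists were chosen with earlier results of these data known, so no list test was made. Given by array are members past the threshold and, of each class, the 2 with the smallest p and the 4 brightest; Col8a2, Col13a1, Col17a1 and Col18a1 were added after their values were seen. Of the other lists, all genes past the threshold and up to 4 by smallest p are named. Of 35 listed maturation genes 5 were not analysed here, and of 26 receptor and organiser genes 1. Promoter sequences are from RefSeq. Alternatives were ND 4 added, each array left out, the specimen number as a block, a filter on dim genes, other normalizations and variance models, array weights, other uses of probe sets, and 2 covariates. Figures were drawn with matplotlib 3.10.9.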

Additional observations from a re-analysis of the deposited data

Results flagged for a closer look

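In 6 of 86 groups of 4 HFD values, 1 array lay apart from the other 3 by more than Dixon's critical value, where chance gives about 1 in 20 groups. Col17a1 was at 5.97 in HFD 1, with the nearest HFD array at 7.34. Col12a1 was at 5.57 in HFD 4, with the nearest at 5.85, and Col10a1 was at 5.66 in HFD 1, with the nearest at 5.51. In dimmer probe sets, Col11a1 was at 3.86 in HFD 2, with the nearest at 3.91, and Col8a1 was at 5 in HFD 1, with the nearest at 4.8. Outside the chains, P4hb was at 12 in HFD 4, with the nearest at 11.84.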

How the results depend on the processing

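The single collagen call was not stable. With ND 4 added 0 collagen genes were called in limma (4 at an unadjusted p under 0.05), with the specimen number as a block 0 (4), with eBayes without a trend 0 (6), with the keratinocyte mean in the model 0 (9) and with the 3′ minus 5′ measure 0 (1). The main fit had 5 of the 42 members and 3777 of all 17097 genes at an unadjusted p under 0.05. In the settings just named, in the same order, the counts over all genes were 2795, 2517, 3815, 2641 and 604. Every probe set alone gave 2, Col16a1 and Col18a1, and the mean of probe sets gave Col18a1 in place of Col16a1. Leaving out 1 array gave 0 to 2, with Col16a1 and Col17a1 called without HFD 1, Col7a1 without HFD 2 and Col16a1 without ND 2. The number of all genes called, against 914, was 6 with ND 4, 1 with the block, 1387 among brighter genes only, 400 with the mean of probe sets, 15 with the keratinocyte mean and 0 with the 3′ minus 5′ measure (604 unadjusted), and 6 to 1072 with 1 array left out (6 without HFD 3, 9 without HFD 4, 11 without ND 3, 212 without HFD 2 and 485 without ND 2). Of the maturation and receptor genes, against 7, 0 were called with ND 4 (17 unadjusted), 0 with the block (16), 0 with the keratinocyte mean (14) and 0 with the 3′ minus 5′ measure (3), 2 with the mean of probe sets, and 0 to 6 with 1 array left out (0 without HFD 3, HFD 4 or ND 3, 1 without HFD 2 or ND 2, and 4 without ND 1). The cause was not tested. Because the 3′ minus 5′ measure did not overlap between the diets, the model holding it could hardly separate it from diet. The median collagen difference stayed between 0.01 and 0.08 in the settings run. Between HFD and ND arrays of the same specimen number, deviations from the diet means were not positively correlated (−0.18, −0.29 and −0.05). With so few arrays, each measured from its own diet mean, these correlations cannot decide whether the arrays were paired. With 4 against 3 arrays, intervals around single genes stayed wide, and dim genes have no known background.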
